A study of Mus musculus with 18 samples.

Results

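The data describe how 41BB+ CD8+ T cells of the mouse changed between 24 h and 72 h of stimulation in culture. Genes were taken by chromosome and by count alone: 12686 autosomal genes had enough counts to be tested, of 55487 genes in the table. They were compared between the 3 libraries of 41BB+ cells at 24 h and the 3 at 72 h, 6 of the 18 libraries of the series. All animals were wild-type C57BL/6J mice, and neither age nor sex was stated for them. Their CD8+ T cells, isolated out of lymph nodes and spleen, had been sorted by surface 41BB (CD137, encoded by Tnfrsf9), a TNF receptor superfamily member that gives costimulation. The 41BB+ fraction is called Tpam in the study, and the 41BB- fraction holds conventional cells. RNA of all kinds was extracted at the sort itself (0 h) and from cells cultured for 24 h or for 72 h on beads coated with antibodies to CD3 and CD28, and no other agent was named for any group. The names 41BB+ and 41BB- therefore refer to the sort at the start, not to surface 41BB after culture. The 3 libraries of each group were described as biological replicates, without saying whether each came from 1 animal or from a pool, so p-values measure the spread between these samples. In bulk RNA, fewer cells of a type and less RNA per cell cannot be told apart.

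Signals from the T cell receptor and CD28 first induce transcription factors of the NR4A, EGR and AP-1 families and cytokines such as interleukin-2. A growth phase follows in which MYC drives ribosome production, nutrient uptake, polyamine and nucleotide synthesis and glycolysis, and the cells then divide. Later, activated CD8+ T cells either arm themselves with granzymes and perforin or keep TCF1, LEF1, KLF2 and the homing receptors of naive and memory cells.

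The 6 libraries held 3436920 to 3911800 counts. Defining transcripts of CD8+ T cells were present in each, with 336 to 459 CPM of Cd8a (CPM, the share of a library's counts times 1e+06), whereas Cd4 had 0 to 2 counts and the B cell marker Ms4a1 had 0 to 1. Some genes that most cells use, among them Rpl13, Rpl24 and Cox4i1, are listed at 0 in all 6 libraries, so a row of zeros was not read as absence of the transcript. Mitochondrially encoded RNA took 6.15% to 6.76% of counts at 24 h and 10.5% to 11.4% at 72 h. Replicate 2 at 24 h stood apart in transcripts of myeloid and NK cells: it held 173 counts of the lysozyme gene Lyz2, 39 of S100a9, 17 of Tyrobp and 9 of Ncr1, where each of the other 5 libraries held 0. Values without that library are given where they change a call.

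Between 24 h and 72 h, 52.8% of the tested genes changed (6701 of 12686), by edgeR's quasi-likelihood test with a Benjamini-Hochberg adjusted p below 0.05. Of all tested genes, 26.5% (3362) were higher at 72 h and 26.3% (3339) were lower. The change was at least 2-fold for 2180 of the higher and 1937 of the lower genes, and at least 8-fold for 333 and 200. Changes are given as log2FC, the log2 of the level at 72 h over that at 24 h, with its standard error (SE), and positive values mean higher at 72 h. The median log2FC over all tested genes was 0.038 and the median size of the change over called genes was 1.23. With so large a share of genes called, a list of genes stands out here by moving nearly all in 1 direction or by the size of its median, and each list below is described by its counts and median beside these values. Levels are CPM of the library's total, while log2FC comes from the fit, which also scales by TMM factors. CPM compare the same gene between libraries and not different genes, since they are not divided by length.

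**Figure D1:**
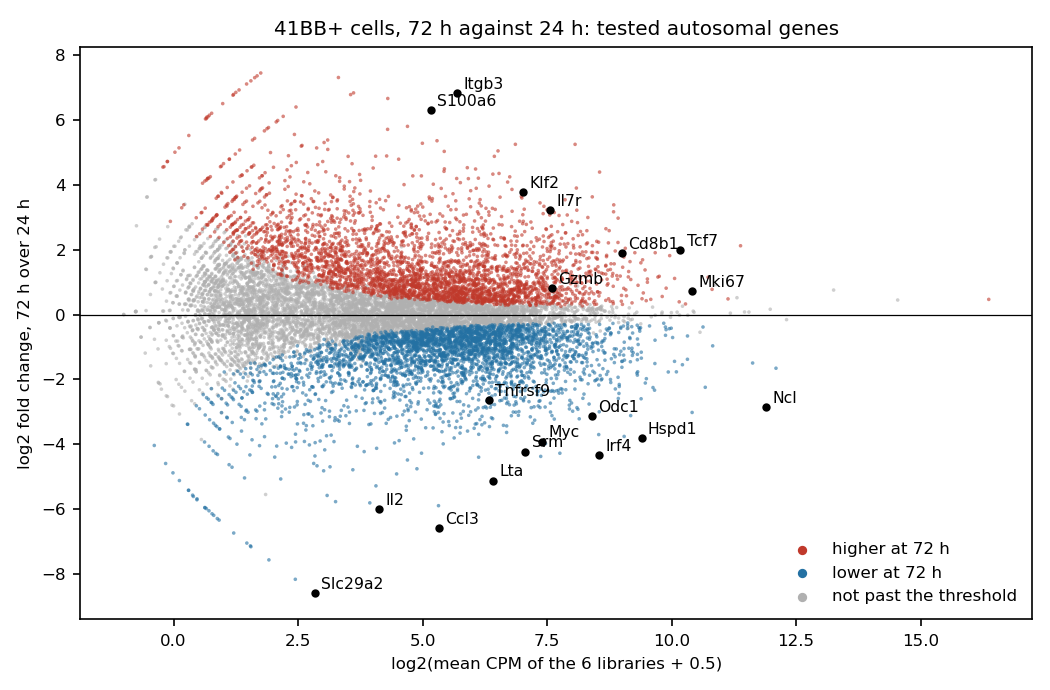
Change from 24 h to 72 h (log2 fold change, vertical axis) against the mean level (log2 of the mean CPM of the 6 libraries plus 0.5, horizontal axis) for each of the 12686 tested autosomal genes of 41BB+ cells, 1 point a gene. Genes called higher (3362) and lower (3339) at 72 h are coloured and those not past the threshold are grey, and named genes are marked in black, with Il2, Ccl3 and Slc29a2 at the bottom and Itgb3 and S100a6 at the top.

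The genes that rose most included receptors and adhesion molecules. Itgb3, the integrin beta 3 subunit that pairs with integrin alpha V, stood at 1.13, 1.32 and 0.256 CPM at 24 h and 108, 101 and 97 CPM at 72 h (log2FC 6.85 ± 0.33 SE, adjusted p = 1.12e-15). The 3 libraries at 72 h all lay above the 3 at 24 h, as they did for each gene named in the rest of this paragraph. The rule that chose these genes required this. Of all 12686 tested genes, 3457 lay wholly higher and 3980 wholly lower at 72 h, so a lack of overlap was common. S100a6, a small calcium-binding protein, stood at 1.13, 1.32 and 0.256 CPM at 24 h and 81.2, 75.1 and 54.1 CPM at 72 h (log2FC 6.31 ± 0.52 SE, adjusted p = 1.35e-09). Gpr15, a receptor for homing to the large intestine, rose by a log2FC of 5.37, from 1.9 ± 0.986 CPM at 24 h to 75.4 ± 13.6 CPM at 72 h (mean ± SD, n = 3). Rasgrp2, an exchange factor that activates the GTPase RAP1 and through it integrins, stood at 5.95, 8.22 and 4.35 CPM at 24 h and 213, 233 and 231 CPM at 72 h (log2FC 5.26 ± 0.20 SE, adjusted p = 6.84e-18). For genes with 3 or fewer counts at 24 h over the group, the ratio of summed counts is given instead: it was 130 (exact 95% counting interval 35.7 to 1080) for Cacnb3, which encodes a calcium channel beta subunit, and 126 (exact 95% counting interval 34.6 to 1050) for Gucy2e, a guanylate cyclase gene. Fcgrt, which encodes the heavy chain of the neonatal Fc receptor, stood at 1.13, 0 and 0 CPM at 24 h and 14.5, 18.3 and 14.3 CPM at 72 h (log2FC 5.39 ± 0.74 SE, adjusted p = 8.46e-07). Without replicate 1 at 24 h, the only library of that time with counts of it, the log2FC of Fcgrt was 8.94. The largest rises also held Ica1l (log2FC 5.31) and Emc9 (ratio of summed counts 40.2, exact 95% counting interval 13.4 to 198). Maats1 was among them too (log2FC 5.81, adjusted p = 0.00198 by edgeR and 0.15 by limma voom), and its level varied most, at 106, 41 and 2.42 CPM at 72 h.

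Secreted mediators of the early response were among the largest falls. Il2, the T cell growth factor, stood at 17.9, 18.8 and 63.4 CPM at 24 h and 0.274, 1.16 and 0 CPM at 72 h (log2FC -6.0 ± 0.79 SE, adjusted p = 9.2e-06). Ccl3 and Ccl4 encode chemokines that draw in other leukocytes. Ccl3 stood at 49.6, 74.2 and 111 CPM at 24 h and 0.274, 1.75 and 0.269 CPM at 72 h (log2FC -6.59 ± 0.46 SE, adjusted p = 1.21e-10), and Ccl4 at 63.2, 66.8 and 103 CPM at 24 h and 0.274, 2.62 and 0.808 CPM at 72 h (log2FC -5.90 ± 0.34 SE, adjusted p = 2.25e-14). In all of these the 3 libraries at 24 h lay above the 3 at 72 h, as the rule that chose them required. Ifng, the gene of interferon gamma, stood at 5.39, 18.6 and 24.3 CPM at 24 h and 0, 1.75 and 0 CPM at 72 h (log2FC -4.70 ± 0.83 SE, adjusted p = 4.45e-05), and without replicate 2 at 72 h, the only library of that time with counts of it, its log2FC was -8.91. Over the list of cytokines, 1 of the 9 tested members was higher and 7 were lower (median log2FC -4.70), and over that of chemokines 1 of 6 was higher and 5 were lower (median -3.73). Other cytokine genes that fell were Lif (log2FC -5.29), Lta, the gene of lymphotoxin alpha (log2FC -5.13), and Tnf (log2FC -3.07). Il3 had no count at 72 h and was at least 6.1-fold lower, taking 3 counts over the group as the floor, but lost its call without replicate 3 at 24 h (adjusted p = 0.142) and with DESeq2 (0.106). Against these, Ltb, the membrane-bound partner of lymphotoxin alpha, rose from 30.3 ± 7.24 CPM at 24 h to 189.6 ± 28.6 CPM at 72 h (log2FC 2.71 ± 0.18 SE, adjusted p = 5.62e-13), and Ccl5, a chemokine kept by memory and effector CD8+ T cells, stood at 0.85, 3.71 and 0.256 CPM at 24 h and 6.31, 7.86 and 9.16 CPM at 72 h (log2FC 2.32 ± 0.66 SE, adjusted p = 0.00633). Without replicate 2 at 24 h the log2FC of Ccl5 was 3.85.

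The early response to the T cell receptor fell with its products. In that list 3 of the 31 tested members were higher and 21 lower (median log2FC -1.96). Myc, the regulator of the growth program (ENSMUSG00000022346; GRCm38 chromosome 15, 61985391 to 61990374, plus strand), stood at 305, 328 and 316 CPM at 24 h and 16.7, 24.7 and 18.3 CPM at 72 h (log2FC -3.92 ± 0.14 SE, adjusted p = 4.41e-18), with no overlap between the times. Irf4, a transcription factor whose level follows the strength of the receptor signal, stood at 706, 666 and 777 CPM at 24 h and 29.6, 40.1 and 32.3 CPM at 72 h (log2FC -4.33 ± 0.18 SE, adjusted p = 2.08e-15). All 3 NR4A receptor genes fell by edgeR: Nr4a3 stood at 367, 433 and 435 CPM at 24 h and 13.7, 25.9 and 21 CPM at 72 h (log2FC -4.28 ± 0.22 SE, adjusted p = 3.67e-13), and Nr4a1 and Nr4a2 had a log2FC of -3.84 and -1.77, the latter with an adjusted p of 0.0506 by limma voom. All 3 EGR genes of the list fell as well, Egr1 by a log2FC of -3.38, Egr2 by -3.14 and Egr3 by -3.36. In the AP-1 family the members split. Fosl1 fell (log2FC -5.59 ± 0.61 SE, adjusted p = 1.67e-08), with a ratio of summed counts at 24 h to 72 h of 56.8 (exact 95% counting interval 19.1 to 278) and a log2FC of -8.87 without replicate 2 at 72 h. Jun (log2FC -1.96) and Junb (log2FC -1.33) fell, whereas Jund (log2FC 0.51) and Batf (log2FC 0.72) rose, the call of Jund being lost without replicate 3 at 24 h (adjusted p = 0.0713). Zfp36, which destabilises cytokine mRNAs, also rose (log2FC 0.96).

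Among receptors and ligands of the TNF superfamily, 5 of 24 tested members were higher and 12 lower. Tnfrsf9, the gene of 41BB itself (ENSMUSG00000028965; GRCm38 chromosome 4, 150914562 to 150946102, plus strand), stood at 389 ± 27.5 CPM at 0 h, the time of the sort, and then at 138, 129 and 149 CPM at 24 h and 18.4, 33.8 and 11.6 CPM at 72 h (log2FC -2.65 ± 0.22 SE, adjusted p = 1.23e-09). Tnfrsf4, which encodes OX40, fell (log2FC -2.85), as did Tnfrsf18, which encodes GITR (log2FC -1.39), and Tnfrsf21, a death domain receptor (ratio of summed counts at 24 h to 72 h 64.2 (exact 95% counting interval 21.6 to 314), log2FC -5.78, or -9.05 without replicate 3 at 72 h). Cd27, a costimulatory receptor of naive and memory cells, rose from 46.2 ± 6.59 CPM at 24 h to 157 ± 11.3 CPM at 72 h (log2FC 1.83 ± 0.14 SE, adjusted p = 6.1e-12). Il2ra, the inducible alpha chain of the interleukin-2 receptor, stood at 818, 815 and 809 CPM at 24 h and 156, 260.1 and 107 CPM at 72 h (log2FC -2.16 ± 0.21 SE, adjusted p = 1.58e-07).

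Genes of ribosome production fell almost without exception. In the list of ribosome biogenesis, 1 of the 36 tested members was higher and 35 were lower (median log2FC -2.83). Ncl encodes nucleolin, the main protein of the nucleolus. It stood at 6640, 6731 and 6855 CPM at 24 h and 888, 914 and 859 CPM at 72 h (log2FC -2.86 ± 0.087 SE, adjusted p = 1.74e-19). Npm1, which encodes nucleophosmin, fell from 2727 ± 206 CPM at 24 h to 547 ± 53.3 CPM at 72 h (log2FC -2.25), and Nop2, an rRNA methyltransferase, from 276 ± 22.4 CPM at 24 h to 27.6 ± 12 CPM at 72 h (log2FC -3.26). The member that rose was Wdr12 (log2FC 0.59, adjusted p = 0.0478 by edgeR), close to the threshold, and it lost the call without any 1 of the 6 libraries other than replicate 3 at 72 h (adjusted p from 0.071 to 0.199). Genes that host small nucleolar RNAs in their introns fell too, among them Snhg17 (log2FC -2.92), Snhg12 (log2FC -2.53) and Snhg5 (log2FC -2.35): over the list of long noncoding RNAs and snoRNA hosts, 3 of 17 were higher, namely Neat1, Malat1 and Dleu2, and 12 lower. The cytosolic ribosomal proteins moved less, with 1 of 39 higher, 14 lower and a median of -0.12. The higher member was Rpl19 (log2FC 0.47), which lost its call without replicate 2 at 24 h (adjusted p = 0.0692) or replicate 2 at 72 h (0.11). Npm1, the ribosomal proteins, Eif5a and Ldha have many near-identical pseudogene copies, and how the authors counted reads shared by such copies is not given, so their levels are uncertain to that extent.

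Polyamines, small cations needed for translation, are made from ornithine by ODC1 and from decarboxylated S-adenosylmethionine, and spermidine is used to turn a lysine of EIF5A into hypusine. In this list 2 of 15 tested members were higher and 10 lower (median log2FC -1.33). Odc1 stood at 615, 597 and 622 CPM at 24 h and 71.9, 83.2 and 45.2 CPM at 72 h (log2FC -3.13 ± 0.26 SE, adjusted p = 3.69e-08). Srm, spermidine synthase, stood at 244, 248 and 269 CPM at 24 h and 13.2, 20.1 and 5.66 CPM at 72 h (log2FC -4.23 ± 0.30 SE, adjusted p = 2.82e-09). Eif5a stood at 1166, 1105 and 1221 CPM at 24 h and 312, 303 and 155 CPM at 72 h (log2FC -2.12 ± 0.17 SE, adjusted p = 1.1e-09). For all 3 the libraries of the earlier time lay above those of the later. Amd1 (log2FC -2.17) and Amd2 (log2FC -2.69), near-identical genes for S-adenosylmethionine decarboxylase between which reads may be split, both fell, as did Mtap, which recycles the sulfur-containing by-product (log2FC -2.78), and Slc7a1, an importer of the precursor arginine (log2FC -2.36). The members that rose were Oaz2, an antizyme that marks ODC1 for degradation (log2FC 1.15), and Atp13a2, which moves polyamines out of lysosomes (log2FC 1.67). Oaz2 lost its call without replicate 3 at 72 h (adjusted p = 0.0583).

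In the synthesis of amino acids, one-carbon units and nucleotides, 24 of 30 tested members were lower and 3 higher (median log2FC -1.79). Cad, which carries out the opening steps of pyrimidine synthesis, fell from 485 ± 19.4 CPM at 24 h to 63.1 ± 12.4 CPM at 72 h (log2FC -2.88 ± 0.13 SE, adjusted p = 2.15e-16). Mthfd1, a folate-cycle enzyme, stood at 360.3, 349 and 378 CPM at 24 h and 41.1, 43.9 and 25.9 CPM at 72 h (log2FC -3.23 ± 0.14 SE, adjusted p = 2.68e-16). Gart (log2FC -2.92) and Pfas (log2FC -2.87), both of purine synthesis, fell. Dctd, which feeds dCMP into thymidylate synthesis, was among the largest falls of all genes (log2FC -4.92 ± 0.40 SE, adjusted p = 5.28e-11). Slc29a2, a nucleoside transporter, had no count in any library at 72 h after 9.07, 11.7 and 19.2 CPM at 24 h, and was at least 48.5-fold lower. Among those that rose were Slc43a1, a transporter of large neutral amino acids (log2FC 2.82), and Slc38a2 (log2FC 0.82), whose call was lost without replicate 2 or 3 at 24 h or replicate 1 or 2 at 72 h (adjusted p 0.0554, 0.0545, 0.105 and 0.0556).

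Most genes of protein folding were lower as well. Of 20 tested heat shock and chaperonin genes 0 were higher and 16 lower (median log2FC -1.76), and all 8 subunits of the CCT chaperonin, which folds actin and tubulin, fell, with log2FC from -3.0 to -1.45. Hspd1, the mitochondrial chaperonin HSP60, stood at 1266, 1252 and 1270 CPM at 24 h and 89.4, 98 and 69.8 CPM at 72 h (log2FC -3.81 ± 0.12 SE, adjusted p = 2.17e-19). Hsp90aa1 stood at 2421, 2400 and 2496 CPM at 24 h and 317, 309.9 and 232 CPM at 72 h (log2FC -3.02 ± 0.11 SE, adjusted p = 6.84e-18). Neither overlapped between the times. Of the ATF4 and unfolded protein response genes 3 of 21 were higher and 12 lower: Hspa5, the chaperone BiP of the endoplasmic reticulum, fell from 718 ± 36.4 CPM at 24 h to 160.1 ± 19.9 CPM at 72 h (log2FC -2.10), whereas the stress-induced genes Ddit3 (log2FC 1.76) and Trib3 (log2FC 3.24) rose.

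MYC binds the E-box CACGTG. In the RefSeq promoter windows (250 bases before to 50 after a start, build GRCm38.p6) of the tested ribosome biogenesis genes, 7 of 33 windows (21.2%) held this motif, found on either strand alike because it is its own reverse complement, against 7.15% of all 32851 windows and 9.91% of those of tested autosomal genes. The share was 14.3% in windows of genes that were at least 2-fold lower and 8.35% in those at least 2-fold higher. These matches are a description, without a test. As an example, the 250 bases before the start of Nop2 (chr6:125131633-125131882, plus strand) are shown, with the E-box in capitals.

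Nop2: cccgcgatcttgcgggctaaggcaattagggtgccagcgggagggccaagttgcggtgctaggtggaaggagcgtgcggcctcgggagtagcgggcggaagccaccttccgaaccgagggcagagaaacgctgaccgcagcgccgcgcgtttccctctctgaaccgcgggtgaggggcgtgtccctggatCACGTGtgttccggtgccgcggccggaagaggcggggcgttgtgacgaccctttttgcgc

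Most glycolysis genes were lower as well. In the glycolysis list 3 of the 23 tested members were higher and 14 lower (median log2FC -0.82). Hk2, the inducible hexokinase, stood at 209, 178 and 179 CPM at 24 h and 14.3, 24.1 and 11.6 CPM at 72 h (log2FC -3.44 ± 0.26 SE, adjusted p = 9.7e-10). Ldha, the lactate dehydrogenase subunit of activated T cells, stood at 1178, 1167 and 1305 CPM at 24 h and 449, 439 and 333 CPM at 72 h (log2FC -1.51 ± 0.12 SE, adjusted p = 3.05e-11). Slc16a1, a lactate transporter, fell from 244 ± 27.3 CPM at 24 h to 36.1 ± 5.28 CPM at 72 h (log2FC -2.69). The 3 genes that rose were Hk1, the constitutive hexokinase (log2FC 0.97), Aldoc, an aldolase (log2FC 3.74), and Pdk1, which inhibits pyruvate dehydrogenase (log2FC 1.47 ± 0.14 SE, adjusted p = 4.08e-10). Genes induced by hypoxia outside glycolysis were split, with 5 of 16 higher and 5 lower. Bnip3l (log2FC 2.13) and Mxi1, a MAX partner that opposes MYC (log2FC 1.83), rose, whereas Fam162a (log2FC -2.09) and Ak4 (log2FC -3.22) fell, Ak4 with an adjusted p of 0.0737 by limma voom. Without replicate 3 at 72 h only 3 of the hypoxia genes were lower.

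Mitochondrial pathways also moved down on the whole, and 1 moved up. Of the tricarboxylic acid cycle genes 2 of 21 were higher and 14 lower (median log2FC -0.60). Idh3a, a subunit of the isocitrate dehydrogenase that makes NADH, fell from 202 ± 6.25 CPM at 24 h to 52.5 ± 7.56 CPM at 72 h (log2FC -1.88 ± 0.14 SE, adjusted p = 2.61e-12), while the isocitrate dehydrogenases that make NADPH, Idh1 (log2FC 2.76) and Idh2 (log2FC 0.84), rose. Nuclear genes of oxidative phosphorylation had 1 of 49 higher and 25 lower (median -0.41), with Cycs, cytochrome c, falling from 86.5 ± 21.8 CPM at 24 h to 16.8 ± 4.48 CPM at 72 h (log2FC -2.30 ± 0.19 SE, adjusted p = 5.44e-11). The member that rose, Uqcrh (log2FC 0.49), lost its call without replicate 1 at 72 h (adjusted p = 0.0503). Beside this, the share of mitochondrially encoded RNA in the libraries was higher at 72 h, as given above. With mitochondrial and ribosomal protein genes removed before the fit, 6673 genes were called in place of 6701. The median log2FC over all tested genes was then 0.050 in place of 0.038. Any other part of that share in these values was not tested. In sterol and fatty acid synthesis 5 of 29 were higher and 13 lower. Fasn, fatty acid synthase, stood at 651, 609 and 616 CPM at 24 h and 176, 175 and 100.5 CPM at 72 h (log2FC -1.99 ± 0.15 SE, adjusted p = 7.62e-12), and the desaturases Scd1 (log2FC 1.97) and Scd2 (log2FC 1.07) rose, that of Scd1 losing its call without replicate 2 at 72 h (adjusted p = 0.186). Fatty acid oxidation moved the other way, with 8 of 18 higher and 1 lower, or 2 lower without replicate 1 or replicate 3 at 72 h. Cpt1a, which carries long-chain fatty acids into mitochondria, stood at 19.8, 18.6 and 11.8 CPM at 24 h and 78.2, 78.6 and 112 CPM at 72 h (log2FC 2.50 ± 0.21 SE, adjusted p = 4.57e-11), and Acads (log2FC 1.24) and Acaa2 (log2FC 1.08) of the beta-oxidation steps rose.

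**Figure D2:**
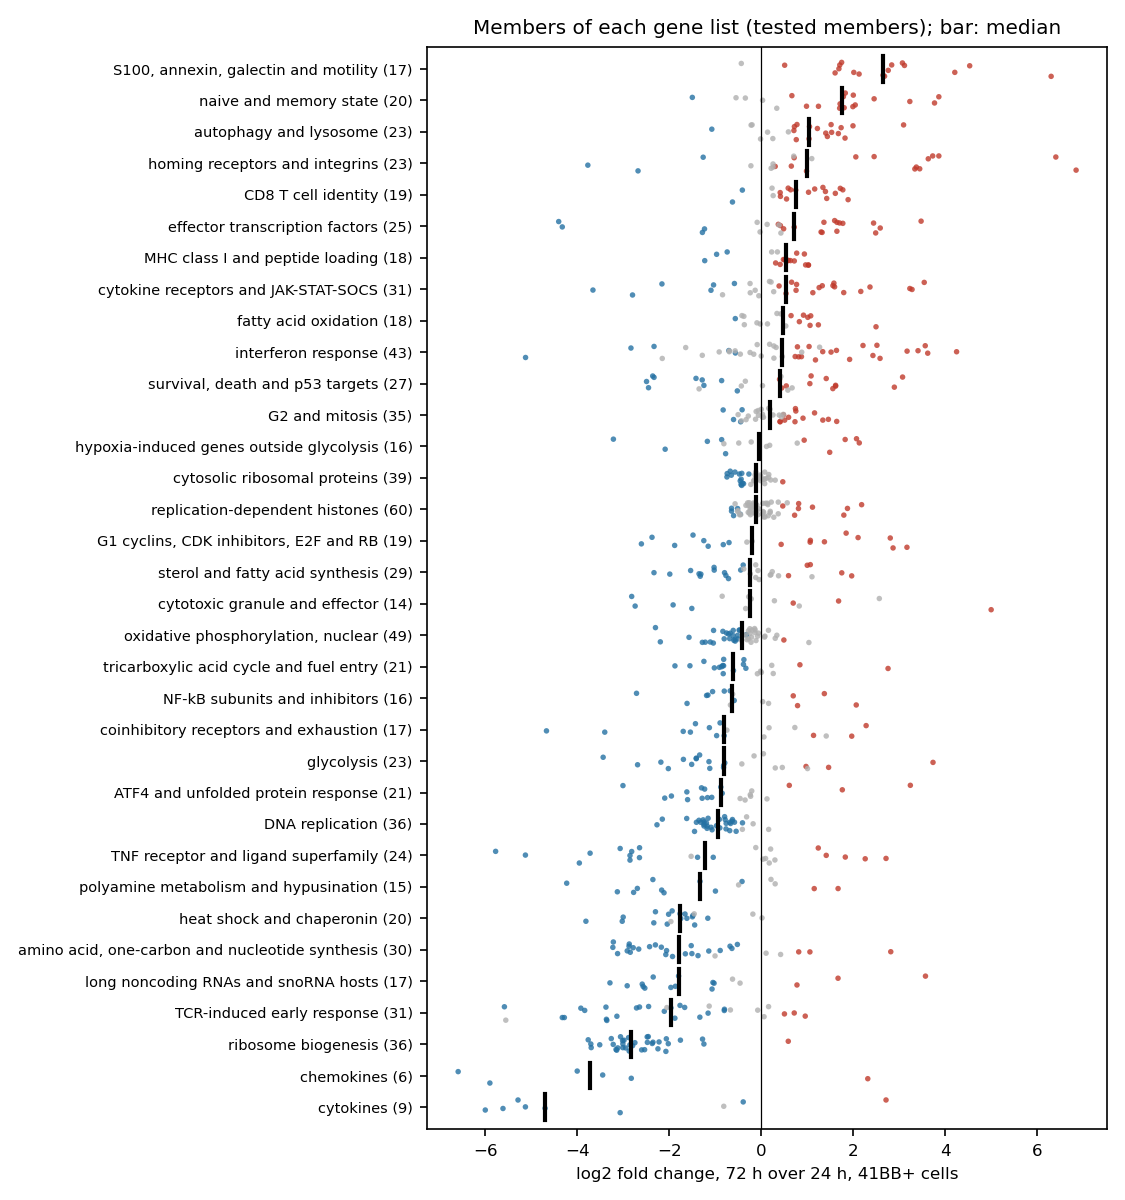
Change from 24 h to 72 h in 41BB+ cells (log2 fold change, horizontal axis) of every tested member of the gene lists with 6 or more such members (1 row a list, number of members in brackets, 1 point a gene), with a black bar at the list's median. Points are coloured where the gene was called higher or lower and grey where not, and rows run from the lowest median, that of cytokines, to the highest, that of S100, annexin and galectin genes.

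Among cell cycle genes, those of DNA replication fell nearly all, while those of G2 and mitosis did not move as a block. In the DNA replication list 0 of 36 tested members were higher and 32 lower (median log2FC -0.94). All 6 subunits of the MCM2-7 helicase, which unwinds DNA at the fork, fell, with log2FC from -1.62 to -0.91. Mcm2 stood at 347, 355 and 352 CPM at 24 h and 119, 114 and 93.7 CPM at 72 h (log2FC -1.62 ± 0.11 SE, adjusted p = 8.56e-13). Mcm3 stood at 633, 575 and 580 CPM at 24 h and 260.1, 181 and 200.1 CPM at 72 h (log2FC -1.41 ± 0.11 SE, adjusted p = 1.58e-11). Cdc6, which loads the helicase, fell from 110.2 ± 3.3 CPM at 24 h to 49.5 ± 10.5 CPM at 72 h (log2FC -1.09), and Ung, a uracil-DNA glycosylase, fell most among the named members (log2FC -2.15). The list of G2 and mitosis had 13 of 35 higher and 4 lower (median 0.19), and 18 did not pass. Its share of called genes, 48.6%, was near the 52.8% over all tested genes. Ccnb2, a mitotic cyclin, stood at 31.8, 31 and 30.9 CPM at 24 h and 98, 77.4 and 103 CPM at 72 h (log2FC 1.64 ± 0.23 SE, adjusted p = 6.24e-07). Cenpa, the histone H3 variant of centromeres, rose from 49.3 ± 5.67 CPM at 24 h to 129 ± 12.5 CPM at 72 h (log2FC 1.46 ± 0.18 SE, adjusted p = 1.27e-07). Mki67, the proliferation marker Ki-67, stood at 1152, 1060 and 968 CPM at 24 h and 1877, 1388 and 1774 CPM at 72 h (log2FC 0.73 ± 0.23 SE, adjusted p = 0.0148), and it lost its call when replicate 3 at 24 h was left out (adjusted p = 0.0561), replicate 1 at 72 h (0.0524) or replicate 3 at 72 h (0.0501).

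The 4 genes of the G2 and mitosis list that fell were Cks2 (log2FC -0.83), Cdk1, the mitotic kinase (log2FC -0.60), Ccna2, cyclin A2 (log2FC -0.45), and the kinesin gene Kif20a (log2FC -0.42), whose call was lost without replicate 2 or 3 of either time (adjusted p from 0.0628 to 0.208). Without replicate 2 at 72 h the list had 14 higher and 1 lower, and Cdk1 (adjusted p = 0.0707) and Ccna2 (0.0574) were no longer called. Histone genes that are expressed with replication, whose RNAs end without a poly(A) tail and are captured here because total RNA was sequenced, had 8 of 60 higher and 5 lower (median -0.12). By class, 4 of 5 linker histones were higher and 0 lower, and 4 of 55 core histones were higher and 5 lower. These counts rested on single libraries: higher and lower were 5 and 0 without replicate 1 at 24 h, 4 and 6 without replicate 2, 5 and 4 without replicate 3, and 5 and 0, 4 and 1, and 7 and 1 without replicates 1, 2 and 3 at 72 h. Histone genes are near-identical copies, so reads may be split between them.

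Regulators of G1 moved strongly in both directions. The inhibitor p27, Cdkn1b, which holds cells before S phase, stood at 18.4, 19.4 and 12.3 CPM at 24 h and 147, 146 and 137 CPM at 72 h (log2FC 3.17 ± 0.15 SE, adjusted p = 1.24e-15). Cdkn2c (log2FC 2.11) and Cdkn2d (log2FC 2.87), inhibitors of CDK4 and CDK6, rose too, whereas Cdkn1a, which encodes p21, fell (log2FC -2.61). Among the D-type cyclins and their kinases, Ccnd2 stood at 634, 583 and 589.8 CPM at 24 h and 118, 168 and 181 CPM at 72 h (log2FC -1.88 ± 0.12 SE, adjusted p = 3.45e-13), Cdk6 fell from 336 ± 29.6 CPM at 24 h to 61.8 ± 16.3 CPM at 72 h (log2FC -2.38) and Cdk4 fell (log2FC -1.48), while Ccnd3 rose (log2FC 1.06). The retinoblastoma-family genes Rb1 (log2FC 1.38) and Rbl2 (log2FC 1.85), which restrain E2F factors, rose. Over the list 9 of 19 were higher and 8 lower.

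Promoters of the replication and mitosis genes carry different known elements: E2F sites for replication genes, and the cell cycle homology region (CHR) with CCAAT boxes for mitotic genes. Both strands of the same windows were searched for TTTCCCGC or TTTGGCGC (E2F), TTTGAA (the core of the CHR) and CCAAT. An E2F match was in 8 of 34 windows of replication genes (23.5%) and in 0 of 31 of G2 and mitosis genes. It was in 1.56% of all windows and in 2.99% of those of tested autosomal genes. A CHR core was in 24 of 31 windows of G2 and mitosis genes (77.4%) and in 11.8% of those of replication genes. It was in 17.9% of all windows and in 12.4% of those of tested autosomal genes, near the share of replication genes. A CCAAT box was in 80.6%, 61.8%, 37.4% and 37.8% of these 4 sets. RefSeq windows were matched for 29 of 36 tested replication genes and for 29 of 35 tested G2 and mitosis genes. The 250 bases before the start are shown for 2 genes of each list, as examples of the matches: Mcm6 (chr1:128359706-128359955, minus strand; log2FC -1.18) and Cdc6 (chr11:98907901-98908150, plus strand) with their E2F matches in capitals, and Ccnb2 (chr9:70421555-70421804, minus strand) and Cdk1 (chr10:69352913-69353162, minus strand) with CHR core and CCAAT matches in capitals. A match is a run of letters and not a measured site.
Mcm6: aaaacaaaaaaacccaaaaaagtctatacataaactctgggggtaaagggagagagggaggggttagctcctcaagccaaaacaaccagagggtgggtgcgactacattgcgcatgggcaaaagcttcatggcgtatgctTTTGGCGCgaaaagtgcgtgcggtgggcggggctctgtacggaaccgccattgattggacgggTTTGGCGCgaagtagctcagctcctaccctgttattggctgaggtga
Cdc6: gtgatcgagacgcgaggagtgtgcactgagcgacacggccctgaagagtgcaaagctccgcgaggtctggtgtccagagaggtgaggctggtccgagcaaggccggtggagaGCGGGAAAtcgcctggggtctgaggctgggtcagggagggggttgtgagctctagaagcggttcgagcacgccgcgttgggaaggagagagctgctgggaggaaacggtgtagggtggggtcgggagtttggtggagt
Ccnb2: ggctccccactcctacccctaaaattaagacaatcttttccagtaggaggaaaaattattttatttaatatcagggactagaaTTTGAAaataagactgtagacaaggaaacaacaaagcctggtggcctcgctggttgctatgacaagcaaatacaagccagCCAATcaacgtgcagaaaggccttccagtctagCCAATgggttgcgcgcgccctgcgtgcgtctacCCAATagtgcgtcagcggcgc
Cdk1: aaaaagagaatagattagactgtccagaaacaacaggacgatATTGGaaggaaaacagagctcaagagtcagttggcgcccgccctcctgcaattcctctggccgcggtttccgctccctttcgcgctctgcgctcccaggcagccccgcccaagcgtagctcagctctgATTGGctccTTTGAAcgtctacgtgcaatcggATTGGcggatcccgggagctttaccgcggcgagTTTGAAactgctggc

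While growth genes fell, genes of naive and memory T cells rose. In that list 15 of the 20 tested members were higher and 1 lower (median log2FC 1.75). Tcf7 (ENSMUSG00000000782; GRCm38 chromosome 11, 52252371 to 52283014, minus strand) encodes TCF1, the factor of long-lived and stem-like T cells. It stood at 503, 510.5 and 428 CPM at 24 h and 2051, 1751 and 1708 CPM at 72 h (log2FC 2.0 ± 0.12 SE, adjusted p = 4.86e-14). Lef1, its relative, stood at 224, 197 and 146 CPM at 24 h and 544, 598 and 777 CPM at 72 h (log2FC 1.83 ± 0.14 SE, adjusted p = 2.76e-11). Klf2, which drives the genes for leaving tissue into blood and lymph, stood at 14.7, 33.7 and 6.65 CPM at 24 h and 254, 233 and 230.3 CPM at 72 h (log2FC 3.77 ± 0.38 SE, adjusted p = 1.42e-06). The groups did not overlap for any of the 3. Foxo1 (log2FC 1.71) and Satb1 (log2FC 1.79) rose, and so did Il7r, the receptor chain for the survival cytokine interleukin-7, from 38 ± 13.8 CPM at 24 h to 339.9 ± 76.8 CPM at 72 h (log2FC 3.23 ± 0.24 SE, adjusted p = 3.26e-09). Igfbp4 alone in the list fell (log2FC -1.50), and 3 members were lower without replicate 2 at 72 h and 2 without replicate 3 at 24 h. For comparison, at the time of the sort (0 h) Tcf7 stood at 1081 ± 57.9 CPM, Lef1 at 378 ± 42.7 CPM, Klf2 at 60.9 ± 10.1 CPM and Il7r at 47.3 ± 9.99 CPM; these levels were not tested against 72 h.

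**Figure D3:**
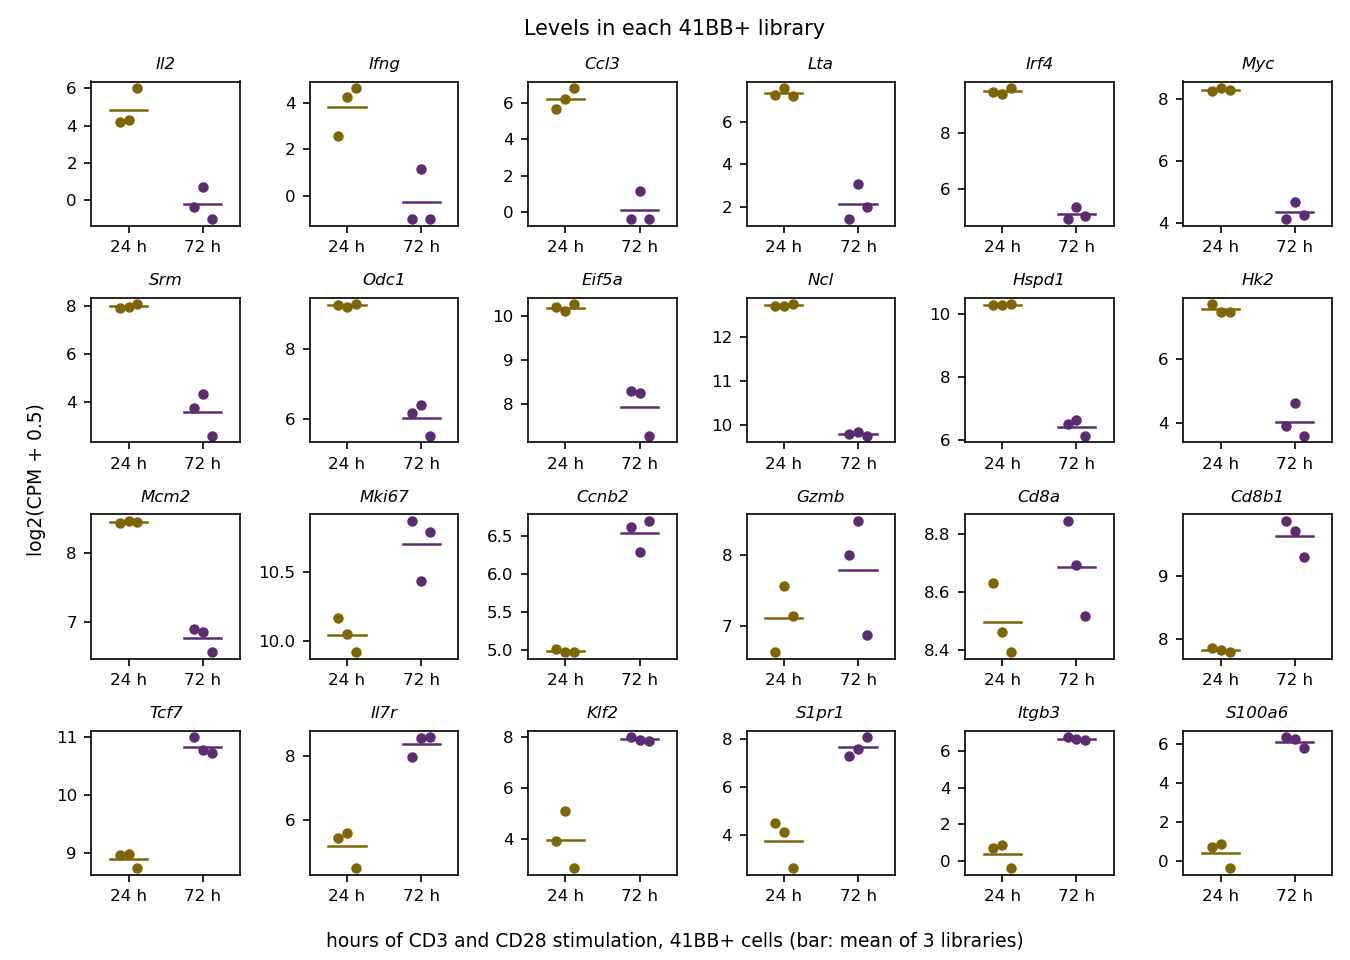
Level (log2 of CPM plus 0.5, vertical axes) of 24 genes in each 41BB+ library at 24 h and 72 h (points, 3 a time), with the mean of these log2 values as a bar. Myc, Srm, Odc1 and Hk2 lie lower in every library at 72 h, Tcf7, Il7r and Klf2 lie higher, and the points of Gzmb and Cd8a overlap.

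**Figure D4:**
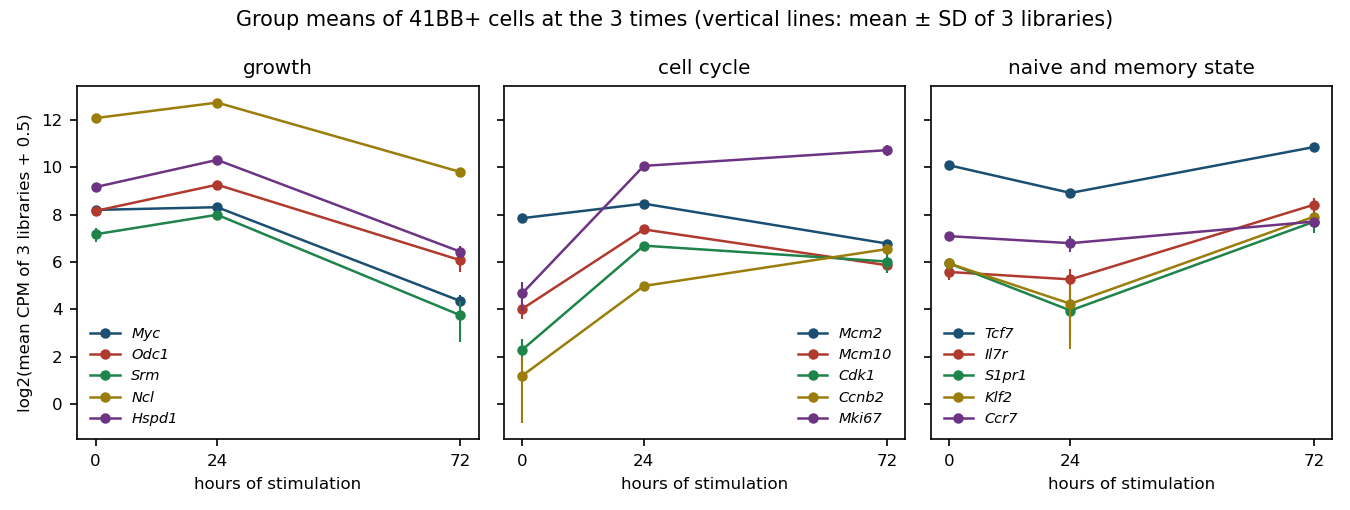
Mean level of 3 libraries (log2 of mean CPM plus 0.5, vertical axis, with lines from mean minus SD to mean plus SD) of 41BB+ cells at 0 h, 24 h and 72 h (horizontal axis) for 5 genes each of growth, the cell cycle and the naive and memory state. The growth genes end at 72 h below their level at 24 h, the naive and memory genes end above it, and within the cell cycle Mcm2 falls while Ccnb2 and Mki67 rise.

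Homing receptors rose with them. Of 23 tested homing receptors and integrins, 14 were higher and 3 lower (median log2FC 0.98). S1pr1, the receptor that leads T cells out of lymph nodes, stood at 22.1, 17.2 and 5.62 CPM at 24 h and 157, 192 and 270.1 CPM at 72 h (log2FC 3.86 ± 0.31 SE, adjusted p = 2.72e-08). Ccr7, a chemokine receptor for entry into lymph nodes, rose by a log2FC of 0.98. Itgae, which encodes CD103 and binds E-cadherin on epithelium, stood at 31.8, 28.6 and 25.8 CPM at 24 h and 255, 280.5 and 360.1 CPM at 72 h (log2FC 3.45 ± 0.17 SE, adjusted p = 4.35e-15). Its partner Itgb7 (log2FC 3.34) and Itga4 (log2FC 3.63) rose as well, and Itga2 had a ratio of summed counts of 112 (exact 95% counting interval 19.7 to 4470). Those that fell were the chemokine receptors Ccr8 (log2FC -3.77, or -7.42 without replicate 3 at 72 h) and Ccr4 (log2FC -2.68) and the activation marker Cd44 (log2FC -1.26).

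The list of S100 proteins, annexins, galectins and motility genes had the most uniform rise of the lists with 10 or more members: 16 of 17 tested members were higher and 0 lower (median log2FC 2.65). S100a10, the partner of annexin A2, stood at 70.3, 79.8 and 61.6 CPM at 24 h and 486, 503 and 457 CPM at 72 h (log2FC 2.84 ± 0.13 SE, adjusted p = 6.87e-16). Lgals1, galectin-1, stood at 38.5, 43.5 and 28.6 CPM at 24 h and 314, 307 and 295 CPM at 72 h (log2FC 3.12 ± 0.15 SE, adjusted p = 6.6e-16), and Lgals3, galectin-3, at 4.25, 6.36 and 4.6 CPM at 24 h and 142, 120.5 and 77 CPM at 72 h (log2FC 4.54 ± 0.25 SE, adjusted p = 1.6e-14). No library of one time reached the range of the other for these genes. Without replicate 3 at 72 h 15 members were higher and 1 lower. Lgals3 and some S100 genes are also made by myeloid cells, and the summed level of the myeloid list was 1.7 to 83 CPM in the 24 h libraries and 1.08 to 3.2 at 72 h. At 72 h Lyz2, S100a8 and S100a9 had 0 counts and Adgre1 and Marco 0 to 2 in each library.

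Genes of autophagy and lysosomes, which break down cell material, were higher for 16 of 23 and lower for 1 (median log2FC 1.04). Laptm5, a lysosomal protein that lowers receptor levels in lymphocytes, stood at 216, 239 and 205 CPM at 24 h and 572, 573 and 657 CPM at 72 h (log2FC 1.52 ± 0.11 SE, adjusted p = 1.27e-12). Npc1 (log2FC 1.68), Npc2 (log2FC 1.40) and Psap (log2FC 1.44), which handle cholesterol and sphingolipids, rose. Among survival and death genes 11 of 27 were higher and 9 lower. Bcl2l1, which encodes the survival protein BCL-XL, stood at 253, 278 and 327 CPM at 24 h and 51, 55.6 and 38.8 CPM at 72 h (log2FC -2.50 ± 0.17 SE, adjusted p = 7.68e-13). The death-promoting BH3-only genes Bmf (log2FC 2.90), Bcl2l11 (log2FC 1.56) and Bbc3 (log2FC 1.62) rose, and Bid fell (log2FC -1.42). Trp53inp1, a p53 target, stood at 51.6, 41.6 and 31.4 CPM at 24 h and 326, 328 and 345 CPM at 72 h (log2FC 3.08 ± 0.14 SE, adjusted p = 5.92e-16), while the p53 targets Aen (log2FC -2.36) and Ccng1 (log2FC -1.28) fell.

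Components of the T cell receptor complex rose. Of 19 tested genes of CD8+ T cell identity 15 were higher and 2 lower. Cd8b1 stood at 232, 227 and 221 CPM at 24 h and 939, 841 and 630 CPM at 72 h (log2FC 1.89 ± 0.14 SE, adjusted p = 1.91e-11), whereas Cd8a, its partner chain, stood at 396, 352 and 336 CPM at 24 h and 459, 413 and 366 CPM at 72 h and did not pass the test (log2FC 0.26 ± 0.12 SE, adjusted p = 0.0672). Cd8a was called without replicate 1 at 24 h (adjusted p = 0.039) or replicate 3 at 72 h (0.0279), and with limma voom (0.0432). Cd3g rose from 138 ± 1.55 CPM at 24 h to 403 ± 22.3 CPM at 72 h (log2FC 1.61) and Cd2, an adhesion receptor, from 69.9 ± 7.44 CPM at 24 h to 219 ± 59.4 CPM at 72 h (log2FC 1.72). Cd5 (log2FC -0.41) and Cd6 (log2FC -0.63), related receptors that dampen signalling, fell. Of MHC class I and peptide loading genes 13 of 18 were higher and 3 lower: Tap2 (log2FC 1.02) and Tapbp (log2FC 1.03) rose, and Calr, calreticulin (log2FC -1.23), and the peptide-trimming Erap1 (log2FC -0.97) fell.

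Effector genes did not move as a block. In the cytotoxic list 3 of 14 tested members were higher and 4 lower. Gzmb, granzyme B, stood at 98.6, 188 and 141 CPM at 24 h and 256, 356 and 117 CPM at 72 h, so that the groups overlapped, and did not pass the test (log2FC 0.83 ± 0.34 SE, adjusted p = 0.0572). It passed without replicate 2 at 24 h (adjusted p = 0.0285) or replicate 3 at 72 h (0.00154), and with DESeq2 (0.0498). Prf1, the pore-former perforin, stood at 2.83, 11.7 and 7.67 CPM at 24 h and 0.823, 3.2 and 1.62 CPM at 72 h (log2FC -1.92 ± 0.46 SE, adjusted p = 0.000898). The 2 times overlapped for Prf1. Serpinb9, the inhibitor that protects T cells from their own granzyme B, fell from 66.9 ± 6.37 CPM at 24 h to 9.4 ± 9.48 CPM at 72 h (log2FC -2.74 ± 0.42 SE, adjusted p = 2.92e-05). Those that rose were Ctsw (log2FC 1.68), Nkg7 (log2FC 0.70) and Gzmc, with a ratio of summed counts of 35.8 (exact 95% counting interval 9.55 to 302). With DESeq2 6 members of the list were higher, and 5 were without replicate 2 at 24 h or without replicate 1 at 72 h. Klrd1, which encodes CD94 of the NK-type receptor family, stood at 6.24, 7.42 and 4.09 CPM at 24 h and 73.5, 102 and 205 CPM at 72 h (log2FC 4.49 ± 0.37 SE, adjusted p = 1.01e-08), and Klrk1, which encodes the activating receptor NKG2D, had log2FC 2.10 with overlapping groups, a call lost without replicate 1 at 24 h, replicate 3 at 24 h or replicate 3 at 72 h (adjusted p = 0.0817, 0.0652 and 0.228).

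Transcription factors of effector differentiation were higher for 16 of 25 and lower for 4 (median log2FC 0.72). Runx3, which sets the CD8+ cytotoxic fate, stood at 253, 256 and 232 CPM at 24 h and 940, 732 and 748 CPM at 72 h (log2FC 1.77 ± 0.12 SE, adjusted p = 7.5e-13). Ikzf2, the gene of Helios, stood at 96.4, 91.5 and 92 CPM at 24 h and 629, 535 and 443 CPM at 72 h (log2FC 2.59 ± 0.20 SE, adjusted p = 4.87e-10). Ets1 rose from 344 ± 56.1 CPM at 24 h to 992 ± 81.5 CPM at 72 h (log2FC 1.60), and Prdm1, which encodes BLIMP1, a driver of terminal differentiation, rose from 0.902 ± 0.586 CPM at 24 h to 9.82 ± 4.13 CPM at 72 h (log2FC 3.48 ± 0.59 SE, adjusted p = 1.4e-05). The 4 that fell were Irf4, given above, Bhlhe40 (log2FC -4.41), Zeb2 (log2FC -1.28, adjusted p = 0.0605 without replicate 2 at 24 h) and Tbx21, which encodes T-bet (60.4, 68.7 and 75.2 CPM at 24 h and 22.2, 35.2 and 25.6 CPM at 72 h; log2FC -1.23). Of coinhibitory receptors and exhaustion genes 3 of 17 were higher and 9 lower. Pdcd1, which encodes PD-1, fell (log2FC -1.54), with the PD-1 ligand genes Cd274 (log2FC -1.70) and Pdcd1lg2 (log2FC -4.67), and Cd200 (log2FC -3.40). Ctla4 (log2FC 1.97), Cd96 (log2FC 1.14) and Vsir, the gene of VISTA, at 59.5, 59.6 and 47.8 CPM at 24 h and 266, 273 and 236 CPM at 72 h (log2FC 2.28 ± 0.13 SE, adjusted p = 1.64e-14), rose.

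Cytokine receptors moved in both directions, more of them up. Of 31 tested cytokine receptors and signalling genes 17 were higher and 6 lower. Il18r1, the binding chain of the interleukin-18 receptor, stood at 12.8, 18.8 and 13.3 CPM at 24 h and 95.8, 126 and 195 CPM at 72 h (log2FC 3.28 ± 0.25 SE, adjusted p = 4.35e-10), and Il12rb1, of the interleukin-12 receptor, fell from 67 ± 9.08 CPM at 24 h to 9.12 ± 2.04 CPM at 72 h (log2FC -2.80). Both chains of the type I interferon receptor, Ifnar1 (log2FC 2.37) and Ifnar2 (log2FC 2.17), rose, with Ifngr1 of the interferon gamma receptor (log2FC 3.55) and Jak1, the kinase they share (log2FC 1.33). Genes of the interferon response were higher for 19 of 43 and lower for 5 (median 0.46). Ddx58, the RNA sensor RIG-I, stood at 3.97, 10.6 and 2.3 CPM at 24 h and 57.1, 64.3 and 70.6 CPM at 72 h (log2FC 3.57 ± 0.28 SE, adjusted p = 2.17e-11). Stat2 (log2FC 2.21), Irf7 (log2FC 3.62, or 6.66 without replicate 2 at 24 h) and Slfn1 (log2FC 3.17) rose, while Usp18, the brake on type I interferon signalling (log2FC -2.83, or -6.78 without replicate 3 at 72 h), and Gbp5, a target of interferon gamma (log2FC -2.33), fell. Of the interferon genes 3 were lower without replicate 1 or 2 at 24 h or without replicate 1 at 72 h, where 23 were higher in the last case. In the NF-kB list 4 of 16 were higher and 8 lower, with Rel (log2FC -1.19) and Nfkb1 (log2FC -1.06) falling and Traf1 rising (log2FC 1.37).

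Lists of other cell types held few tested genes, apart from that of B cells and antigen presentation. None of the 9 autosomal stromal and endothelial markers had enough counts to be tested, and 1 NK cell marker, 3 dendritic, 3 CD4 helper, 3 innate-like, 2 myeloid and 1 erythroid or platelet marker had. Of the myeloid genes, Csf1r, a receptor of macrophages, was called lower, but all of its counts were in replicate 2 at 24 h, and without that library its log2FC was 0. In the B cell list 9 of 16 members were tested, and 3 were higher and 1 lower. The median log2FC was -0.96, so the list did not rise as a block. Its summed level was 163 to 280.2 CPM in the 24 h libraries and 563 to 638 at 72 h, most of it from Ighm. Ighm stood at 168, 209 and 143 CPM at 24 h and 584, 547 and 521 CPM at 72 h (log2FC 1.74 ± 0.12 SE, adjusted p = 1.78e-12) and Ighd at 3.4, 7.16 and 3.83 CPM at 24 h and 28, 27.6 and 24.8 CPM at 72 h (log2FC 2.54 ± 0.37 SE, adjusted p = 1.32e-06). Cd79b, a signalling chain of the B cell receptor, stood at 2.27, 1.85 and 0.256 CPM at 24 h and 7.68, 6.11 and 8.08 CPM at 72 h (log2FC 2.38 ± 0.56 SE, adjusted p = 0.000774). The lower member was Cd74, the invariant chain of MHC class II, with overlapping groups (log2FC -1.25, adjusted p = 0.0486 by edgeR and 0.199 by limma voom), a call lost without replicate 2 at 24 h (0.36) or any 1 library at 72 h (0.0509, 0.0836 and 0.188). Ms4a1 and Cd79a had 0 to 2 counts in each library. The part of other cells in these values was not tested. Zbtb7b, the gene of ThPOK, which specifies CD4+ T cells, stood at 0.85, 3.18 and 3.83 CPM at 24 h and 19.5, 28.2 and 20.2 CPM at 72 h (log2FC 3.14 ± 0.42 SE, adjusted p = 2.86e-07) beside 0 to 2 counts of Cd4.

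The same interval was measured in 41BB- cells, the control population treated in the same way. There 41.1% of the tested genes changed (5214 of 12686), 2889 higher and 2325 lower. Whether a change differed between the populations was tested by the interaction, the log2FC of 41BB+ cells minus that of 41BB- cells, in the same edgeR fit. It passed for 17.6% of tested genes (2233 of 12686): 1443 with a lower and 790 with a higher log2FC in 41BB+ cells. This balance depended on the setting: tested against a minimum fold of 2, 56 genes had the lower and 74 the higher value, and with mitochondrial and ribosomal protein genes removed 1255 and 917. In 1059 of these genes both populations changed in the same direction and in 123 in opposite directions, while 742 were called in 41BB+ cells alone and 286 in 41BB- cells alone. 

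Cell cycle genes differed between the populations. The median log2FC of the DNA replication list was -0.94 in 41BB+ and 0.035 in 41BB- cells, and the interaction passed for 30 of 36 genes, all with the lower value in 41BB+ cells. For G2 and mitosis the medians were 0.19 and 1.65 (34 of 35 lower), and for replication-dependent histones -0.12 and 1.53 (57 of 60 lower). Mki67 stood at 526 ± 112 CPM at 24 h and 2260 ± 192 CPM at 72 h in 41BB- cells and at 1060 ± 91.8 CPM at 24 h and 1680 ± 258 CPM at 72 h in 41BB+ cells, and the difference of log2FC was -1.52 ± 0.33 SE, adjusted p = 0.00466 by edgeR. Mcm2 fell in both, by a log2FC of -0.48 and -1.62 (difference -1.14 ± 0.15 SE, adjusted p = 6.27e-06). Cyclin B2 mRNA, Ccnb2, rose more in 41BB- cells (log2FC 3.77 against 1.64, difference -2.12 ± 0.34 SE, adjusted p = 5.91e-05).

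Glycolysis and growth differed too. The median of the glycolysis list was -0.82 in 41BB+ and 0.96 in 41BB- cells, with 16 of 23 genes lower by the interaction. Ldha stood at 1127 ± 138 CPM at 24 h and 1290 ± 232 CPM at 72 h in 41BB- cells (difference of log2FC -1.86 ± 0.17 SE, adjusted p = 3.71e-08), and Hk2 at 161 ± 14.2 CPM at 24 h and 89.6 ± 40.6 CPM at 72 h (difference -2.75 ± 0.35 SE, adjusted p = 1.56e-05). Ak4, an adenylate kinase of mitochondria, fell in 41BB+ cells (log2FC -3.22) and had a log2FC of 1.78 in 41BB- cells (difference -5.0 ± 1.04 SE, adjusted p = 0.00116). Ribosome biogenesis fell in both populations, with medians of -2.83 and -1.79, and the fall was larger in 41BB+ cells for 28 of 36 genes. The same held for Myc (log2FC -3.92 against -2.54, difference -1.39 ± 0.18 SE, adjusted p = 5.28e-06) and Srm (difference -1.62 ± 0.40 SE, adjusted p = 0.00881). For Odc1 the difference did not pass (-0.95 ± 0.34 SE, adjusted p = 0.0713), so that a different change of Odc1 in the 2 populations was not shown, although it passed with limma voom (adjusted p = 0.0355), without a filter (0.0068), with the replicate number as a block (0.0249) and with only the compared groups in the fit (0.00573).

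**Figure D5:**
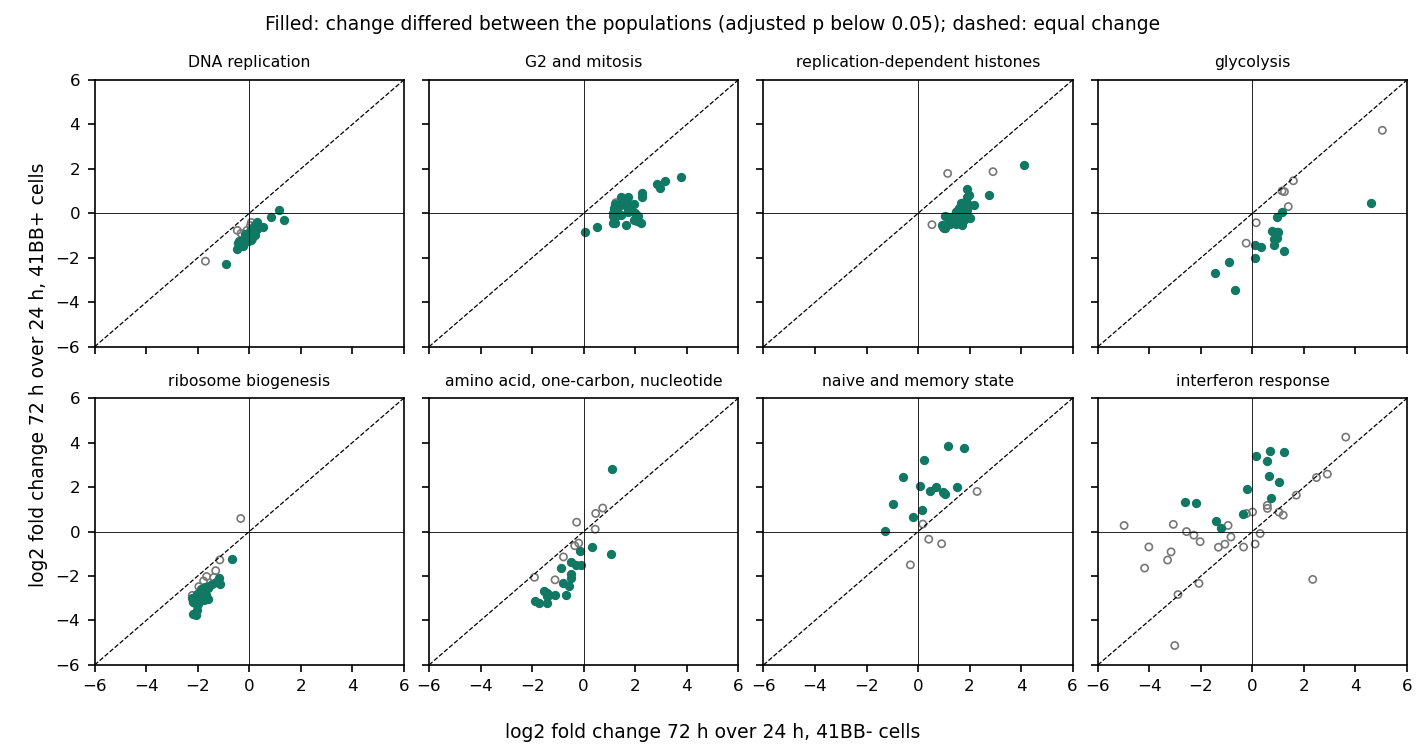
Change from 24 h to 72 h in 41BB+ cells (log2 fold change, vertical axes) against the change in 41BB- cells (log2 fold change, horizontal axes) for tested members of 8 gene lists, 1 point a gene and 1 panel a list, with a dashed line of equal change. Filled points passed the interaction test: those of DNA replication and of G2 and mitosis all lie below the line, and those of the naive and memory list all lie above it.

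Naive and memory genes rose more in 41BB+ cells. The list's median was 1.75 against 0.45, and the interaction passed for 14 of 20 genes, all with the higher value in 41BB+ cells. Il7r stood at 143 ± 20.5 CPM at 24 h and 151 ± 15.6 CPM at 72 h in 41BB- cells (difference 3.01 ± 0.32 SE, adjusted p = 6.97e-06). S1pr1 (difference 2.71 ± 0.41 SE, adjusted p = 0.000273), Klf2 (difference 1.99 ± 0.51 SE, adjusted p = 0.0156) and Lef1 (difference 1.35 ± 0.20 SE, adjusted p = 2.15e-05) followed the same order. Interferon response genes had medians of 0.46 and -0.34, with 13 of 43 higher by the interaction, among them Slfn1 (difference 2.61 ± 0.27 SE, adjusted p = 1.61e-07), Ddx58 (difference 2.35 ± 0.38 SE, adjusted p = 7.02e-05) and Ifit1bl1 (difference 3.94 ± 0.72 SE, adjusted p = 0.000638). Within 41BB+ cells Ifit1bl1 overlapped between the times. Its log2FC of 1.34 there was 0.41 without replicate 3 at 72 h (adjusted p = 0.454 by edgeR). Itgae (difference 2.33 ± 0.23 SE, adjusted p = 1.55e-07), Vsir (difference 2.17 ± 0.18 SE, adjusted p = 6.37e-09) and Klrd1 (difference 3.20 ± 0.52 SE, adjusted p = 0.000282) rose more in 41BB+ cells.

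Effector genes differed in both directions. In the cytotoxic list the interaction passed with the lower value in 41BB+ cells for 1 of 14 genes, Gzmb, and with the higher value for 3: Ctsw (difference 1.16 ± 0.28 SE, adjusted p = 0.00465), Srgn, the granule proteoglycan serglycin (difference 0.98 ± 0.17 SE, adjusted p = 0.000201), and Nkg7 (difference 0.69 ± 0.23 SE, adjusted p = 0.0369). The difference of Nkg7 was lost without replicate 1 at 24 h or replicate 2 at 72 h of 41BB+ cells (adjusted p 0.0587 and 0.0762) and without replicate 3 at 24 h or at 72 h of 41BB- cells (0.0756 and 0.0713). Among the transcription factors 4 of 25 had the lower value (Prdm1, Bhlhe40, Irf4 and Tbx21) and 5 the higher (Ets1, Hopx, Ikzf3, Irf1 and Nr3c1). Gzmb stood at 25.5 ± 9.19 CPM at 24 h and 605 ± 119 CPM at 72 h in 41BB- cells (log2FC 4.72, adjusted p = 5.92e-07 by edgeR), and the difference of log2FC was -3.89 ± 0.51 SE, adjusted p = 0.000177. Tbx21 fell in 41BB+ cells and had a log2FC of 0.26 in 41BB- cells (difference -1.50 ± 0.32 SE, adjusted p = 0.00114). Prdm1 rose in both, by a log2FC of 3.48 and 7.66 (difference -4.18 ± 1.21 SE, adjusted p = 0.0155). Its level in 41BB- cells was 0.0947 ± 0.164 CPM at 24 h and 23.5 ± 12.6 CPM at 72 h. The value of 7.66, and with it the size of the difference, thus starts from nearly no counts and rests on the prior of the fit. The difference of Prdm1 was lost without replicate 1 of 41BB+ cells at 24 h (adjusted p = 0.0738) and without replicate 1 or 2 of 41BB- cells at 24 h (0.053 and 0.0696), and with limma voom (0.0761). Slc16a3, the lactate exporter induced with glycolysis, stood at 3.04 ± 1.73 CPM at 24 h and 69.7 ± 46.3 CPM at 72 h in 41BB- cells and at 3.31 ± 0.569 CPM at 24 h and 4.29 ± 3.05 CPM at 72 h in 41BB+ cells (difference -4.15 ± 0.99 SE, adjusted p = 0.00727), a difference that did not pass with limma voom (adjusted p = 0.136). Some genes with the largest differences had few counts: Slc29a2 (difference -5.14 ± 1.37 SE, adjusted p = 0.00912, or adjusted p = 0.108 by limma voom), Acsl6, an acyl-CoA synthetase gene (-4.72 ± 0.99 SE, adjusted p = 0.00174), and Dtx1, a NOTCH target, at least 35.6-fold lower at 72 h in 41BB+ cells (-4.60 ± 1.31 SE, adjusted p = 0.0147), a difference lost without replicate 2 of 41BB- cells at 72 h (adjusted p = 0.0602) and, at -2.67, with limma voom (0.21). In the other direction stood Pgpep1l (difference 4.45 ± 0.92 SE, adjusted p = 0.00202), Ifi213, one of a cluster of similar interferon-induced genes (4.36 ± 0.75 SE, adjusted p = 0.00126), Emc9 (4.24 ± 0.75 SE, adjusted p = 0.000183), Tmem140 (4.0 ± 0.82 SE, adjusted p = 0.000872) and Prss12 (3.86 ± 0.79 SE, adjusted p = 0.000914). Emc9 had 3 counts over the 41BB+ libraries at 24 h. Within 41BB+ cells Prss12 overlapped between the times, and its rise (log2FC 1.49) lost its call without replicate 2 at 24 h (adjusted p = 0.0984 by edgeR).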

How the data were processed

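RNA of the 18 libraries was made with a stranded total RNA kit, per the labels' protocols, and the deposited table holds raw gene counts that were not normalized. The submitters' processing notes name FastQC 0.11.9, Trimmomatic 0.38, HISAT2 2.2.1, featureCounts and the build GRCm38, without order. No source used here gives the annotation release, whether counting used strand, or how reads matching several genes were treated, so overlapping, antisense and near-identical genes are uncertain. Gene IDs were matched to GENCODE M21 (55141 of 55487 had a symbol), and genes on chromosomes 1 to 19 were reported.

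Counts were filtered with filterByExpr by group (minimum count 10, minimum total 15), scaled by TMM and fitted with edgeR 4.0.16 in R 4.3.3, by the robust quasi-likelihood fit with 1 mean for each of the 6 groups and all 18 libraries. P-values were adjusted by Benjamini-Hochberg over all 13150 tested genes, with a threshold of 0.05. The interval from 24 h to 72 h was tested in each population and as an interaction. The procedure was also run on simulated counts in which few genes changed, evenly in both directions, unlike these data. That run does not bear on the scaling here. Intervals of count ratios are exact at 95% and cover counting error only, and the floor for genes without counts was 3 counts over the group. Alternatives were DESeq2 1.42.0, limma 3.58.1 with voom and sample quality weights, RLE size factors, no filter, a replicate block, the compared groups alone, mitochondrial and ribosomal protein genes removed, a minimum fold of 2, a covariate for each library's Y-linked counts, and each library left out. Figures were drawn with matplotlib 3.10.9.

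Named genes were the 10 largest changes in each direction with a mean of at least 5 CPM and groups that did not overlap (predicted genes, pseudogenes and receptor segments left out), up to 4 members of each of 43 lists with the smallest adjusted p, 12 fixed genes, the 6 largest interactions in each direction, and list members that moved against their list or complete a family. Il7r, Ccr7, Klf2, S1pr1, Tbx21, Prf1, Cdk4, Ccnd3, Rb1, Irf7, Srgn, Hopx, Ikzf3, Irf1, Nr3c1, Cdc6, Mcm6 and Nop2 were named after their values were seen. The comparison and the lists were chosen with earlier results of these data known. Some genes are not reported here.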

Additional observations from a re-analysis of the deposited data

Results flagged for a closer look

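The change from 24 h to 72 h differed between 41BB+ and 41BB- cells by the interaction test of edgeR (adjusted p below 0.05) for the following genes. Each value is the log2FC of 41BB+ cells minus that of 41BB- cells.

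Lower values in 41BB+ cells were found for the transporter and lipid genes Slc29a2 (-5.14) and Acsl6 (-4.72) and for Dtx1 (-4.60), whose counts were 0 or nearly 0 at 72 h in 41BB+ cells. Among glycolysis and hypoxia genes the values were -5.0 for Ak4, -4.15 for Slc16a3, -2.75 for Hk2 and -1.86 for Ldha. Effector genes gave -4.18 for Prdm1, -3.89 for Gzmb and -1.50 for Tbx21. That of Prdm1 starts from nearly no counts in 41BB- cells at 24 h. Cell cycle genes gave -2.12 for Ccnb2, -1.52 for Mki67 and -1.14 for Mcm2. Growth genes gave -1.62 for Srm, -1.39 for Myc and -1.31 for Eif5a.

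Higher values in 41BB+ cells were found for the naive, memory and homing genes Il7r (3.01), S1pr1 (2.71), Itgae (2.33), Klf2 (1.99), Lef1 (1.35) and Ccr7 (0.83). Interferon-induced genes gave 4.36 for Ifi213, 3.94 for Ifit1bl1, 2.61 for Slfn1 and 2.35 for Ddx58. The receptors Klrd1 and Vsir gave 3.20 and 2.17, and the granule genes Ctsw, Srgn and Nkg7 gave 1.16, 0.98 and 0.69. The remaining genes were Pgpep1l (4.45), Emc9 (4.24), Tmem140 (4.0) and Prss12 (3.86). In Pgpep1l, Prss12, Srgn, Ifit1bl1, Tmem140 and Ifi213 the fitted log2FC was positive in 41BB+ cells and negative in 41BB- cells. That of Pgpep1l in 41BB- cells (-0.54) did not pass the test. The rises of Ifit1bl1 and Prss12 in 41BB+ cells lost their calls when some single libraries were left out.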

How the results depend on the processing

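The 6701 genes that changed from 24 h to 72 h in 41BB+ cells numbered 6044 to 6368 when each library was left out in turn, 6148 to 6818 under every other alternative but 1, and 2412 under a test against a minimum fold of 2. The 2233 genes with a different change in the 2 populations numbered 1724 to 2249 with each library left out, 2023 to 2432 otherwise, and 130 under the minimum fold of 2. Testing against a fold asks for larger changes, which lowers both counts by construction. With the replicate number as a block (replicate block) the counts were 6671 and 2201. The replicate number is the experiment number of the sample titles. Between the 2 times it did not pair the 41BB+ libraries: deviations of same-numbered libraries correlated at -0.034, 0.042 and -0.098 over 10029 genes. Replicate 3 had a share of male Y-linked counts of 0.0208% at 24 h and of 0% at 72 h in 41BB+ cells. In 41BB- cells that share was 0.0213% and 0.000118%. For replicates 1 and 2 at 24 h it was 0.00604% and 0.0102% in 41BB+ cells, and 0.00759% and 0.0131% in 41BB- cells. The interaction test took the populations of the same number and time as independent, and such a pairing was not tested. With the block Cd74 (adjusted p = 0.0524) and Klrk1 (0.0508) lost their calls. The share of higher genes among those called for the interval stayed between 47.5% and 52.7%. For the difference between populations it was 35.4%, 33.7% to 45.6% in other settings, and 56.9% under the minimum fold of 2.

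Of the values of single named genes for the interval, 3558 kept direction and call, 129 lost the call and 16 gained it. The remaining 3 were Csf1r, which went to no change (log2FC 0 without replicate 2 of 41BB+ cells at 24 h, which held all of its counts; range over single libraries left out -7.34 to 0) and Slc16a3, which was not called and changed sign in 2 settings (-0.057 with the Y-linked share as a covariate and -0.31 without replicate 3 of 41BB+ cells at 72 h; range over single libraries left out -0.31 to 0.76; the cause was not tested). Of the values of single genes for the difference between populations, 724 kept direction and call, 28 lost the call and 4 gained it. Both tallies include the test against a minimum fold of 2, under which calls are lost by construction. Depth limits the genes with few counts, whose fitted log2FC at or near 0 counts rests on the prior of the fit.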
